A study of Rattus norvegicus with 196 samples.

Results

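Ntrk2 encodes TrkB, the receptor tyrosine kinase for brain-derived neurotrophic factor (BDNF). It was followed as 1 transcript, ENSRNOT00000042145, of the 29188 transcripts counted in each library, chosen by its name in the list that pairs transcript identifiers with names and then read in all 25 brain regions, both treatments and every replicate. That list holds only transcripts the study had called changed in several regions of these same samples, so any difference in Ntrk2 between treatments is not independent evidence of its direction. RNA-seq was run on punches of brain regions from male Long-Evans rats, 2 months old, that received fluoxetine at 18 mg/kg in drinking water (FT) or water alone (Sham) for 6 weeks. Each sample pooled 1 region over several animals, the replicates are numbered 1, 3, 4 and 5, and the FT and Sham samples of a number were processed in parallel. All regions of a replicate came from the same pool of animals, so regions are not independent of each other. After the exclusions 96 Sham and 97 FT libraries remained. Most regions had 4 samples a group, but the arcuate nucleus (Arc) had 2 Sham samples, the medial preoptic area (MPOA) had 2 FT samples, the cingulate cortex (CGC) had 3 of each, and the solitary tract nucleus (SNT) had 3 Sham samples.

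BDNF binding makes TrkB dimerise and phosphorylate itself, and adaptor proteins then pass the signal to the Ras-MAPK, PI3K-Akt and phospholipase C pathways. TrkB is made by most neurons and, as a truncated form without the kinase domain, by astrocytes. It is known for its part in neuronal survival, synaptic plasticity and the action of antidepressant drugs. Which form the counted transcript encodes is not given in the sources used here. Reads that fit more than 1 transcript were set aside as ambiguous in the counting, a median of 5.52% of the counted, ambiguous and featureless reads together, so these values may not cover all Ntrk2 RNA. In punches of whole tissue, fewer cells of a type and less RNA per cell cannot be told apart.

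Libraries held between 543403 and 50893913 counts, with a median of 11934608. Ntrk2 itself had between 14 and 11225 counts, with a median of 1571, and intervals from such counts cover counting error only. Replicate 3 stood apart: its libraries had a median of 6356289 counts against 12604316 or more in the others, and their 50 most abundant transcripts took a median of 67.9% of the counts. Of the markers with an identifier, several were highest where they are known to be made. Th, the rate-limiting enzyme of catecholamine synthesis, averaged 303 CPM (counts scaled to a common library total) in the Sham ventral tegmental area (VTA) and 159 CPM in the locus coeruleus (LC). Adora2a, a receptor of striatal projection neurons, was highest in the nucleus accumbens core (NaCcore), at 132 CPM. Others were not highest where they are best known. Hcrt averaged 219 CPM in the ventromedial hypothalamus and 152 CPM in the lateral hypothalamus, where its neurons lie, Oxt was highest in the medial preoptic area at 678 CPM, and the serotonin receptor gene Htr1a averaged 9.65 CPM in the dorsal dentate gyrus and 3.07 CPM in Raphe. Hcrt in the Sham lateral hypothalamus ran from 1.17 to 568 CPM between replicates. The region labelled PVN, which the study's list of regions names as thalamic, had 408 CPM of the thalamic marker Tcf7l2 but 1.83 CPM of Avp and 5.85 CPM of Oxt, the hormones of the hypothalamic paraventricular nucleus.

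In Sham animals, Ntrk2 was highest in cortex and amygdala and lowest in the habenula, the locus coeruleus and PVN. Levels are given as CPM scaled by the trimmed mean of M values (TMM), which corrects for total counts and composition but not for transcript length. The insular cortex (InsularCortex) had 230.1 CPM in replicate 1, 194 in replicate 3, 198 in replicate 4 and 228 in replicate 5, a mean of 213 CPM ± 19.1 (SD, n = 4). The habenula (HB) had 81.6, 58.3, 95.3 and 93.4 CPM in the same order, a mean of 82.2 CPM ± 17.0 (SD, n = 4). The highest mean was 2.59 times the lowest, and every insular sample lay above every habenular one.

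Between these ends the order was gradual. After InsularCortex came the central medial amygdala (CMA) at 207 CPM ± 42.5, the prelimbic cortex (PLC) at 201 CPM ± 24.8 and CGC at 197 CPM ± 45.5 (SD). Arc averaged 187 CPM ± 12.4 (SD, n = 2) and the infralimbic cortex (ILC) 179.7 CPM ± 62.8 (SD, n = 4). ILC spread widest, from 92.1 CPM in replicate 3 to 228 CPM in replicate 5. MPOA at 175 CPM, the basolateral amygdala (BLA) at 173 CPM, the ventromedial hypothalamus (VMH) at 155 CPM and the ventral dentate gyrus (venDG) at 151 CPM followed. The mediodorsal thalamus (MDT) and the lateral hypothalamus (LH) both averaged 147 CPM.

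The striatal and septal regions lay close together. NaCcore averaged 141 CPM, the accumbens shell (NaCshell) 134 CPM, the medial septum (MS) 133 CPM, the lateral septum (LS) 129 CPM and the bed nucleus of the stria terminalis (BNST) 126 CPM, with the dorsal dentate gyrus (dorDG) among them at 131 CPM. The lowest means were in midbrain and hindbrain regions and in PVN and HB. VTA averaged 120.3 CPM, Raphe 116 CPM, the periaqueductal grey (PAG) 116 CPM, SNT 109.5 CPM ± 5.07 (SD, n = 3), PVN 90.8 CPM and LC 88.8 CPM.

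**Figure D1:**
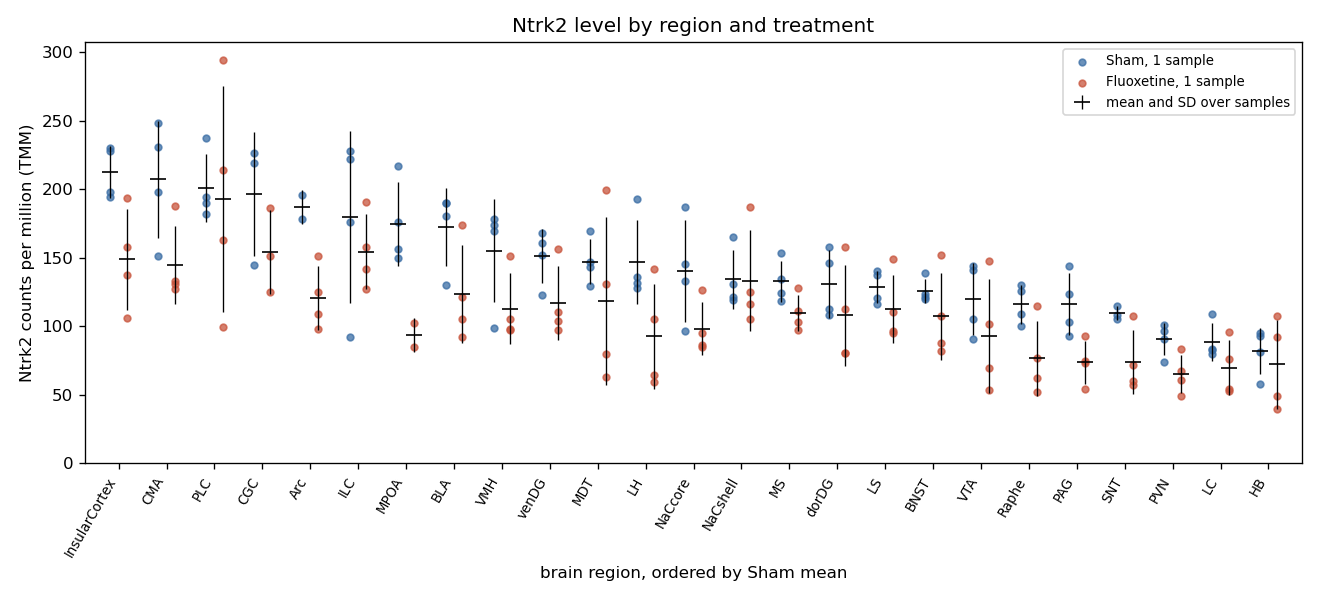
Ntrk2 level in CPM (TMM scaling, vertical axis) in each of 25 brain regions (horizontal axis, ordered by the Sham mean). Each point is 1 sample, blue for Sham and red for Fluoxetine, and the black marks give the mean and SD. Sham means run from 213 CPM in InsularCortex to 82.2 CPM in HB, and the FT mean is the lower of the pair in all 25 regions.

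The regions differed in Ntrk2 beyond the spread between replicates. In 1 fit of all Sham samples with the replicate number as a block, edgeR's quasi-likelihood F was 8.82 (adjusted p = 6.44e-13). This is common in these data, since 69.0% of the 17008 transcripts tested differed between regions at an adjusted p of 0.05. No step between neighbours in the order was past that threshold: of 24 neighbouring pairs, 0 passed, 0 had an unadjusted p under 0.05, and the lowest adjusted p by edgeR was 0.522.

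Of 10 pairs, chosen as related or adjoining regions, 2 differed by edgeR. Ntrk2 was lower in HB than in MDT by a log2 difference of -0.86 (SE 0.17, adjusted p = 0.000179), where 10.5% of transcripts differed. It was lower in PVN than in VMH by a log2 difference of -0.77 (SE 0.17, adjusted p = 0.000739), where 9.91% of transcripts differed. Since the study names PVN as thalamic, this pair sets a thalamic region against a hypothalamic one. The PVN samples ran from 74.4 to 101 CPM and the VMH samples from 99.0 to 179 CPM, with VMH replicate 3 alone reaching into the PVN range. Without replicate 4 the PVN difference was -0.61 and its adjusted p by edgeR was 0.0518.

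The other 8 pairs were not past the threshold, the lowest adjusted p by edgeR being 0.162 for Raphe over LC, with a log2 difference of 0.41 (SE 0.17), where 6.26% of transcripts differed. The log2 difference was -0.19 (SE 0.17) for dorDG minus venDG, 0.05 (SE 0.17) for NaCcore minus NaCshell, 0.14 (SE 0.18) for PLC minus ILC and -0.29 (SE 0.17) for BLA minus CMA. It was -0.11 (SE 0.19) for CGC minus InsularCortex, -0.03 (SE 0.17) for LS minus MS and 0.06 (SE 0.17) for VTA minus PAG. The share of transcripts that differed was 1.77% between the dentate regions, 0.0% between the accumbens regions, 3.09% between PLC and ILC, 2.63% between the amygdala regions, 0.223% between CGC and InsularCortex, 1.64% between the septal regions and 4.12% between VTA and PAG. At these standard errors, small differences between such regions were not detectable.

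The order of regions was partly kept between replicates. Spearman's rho over the regions lay between 0.465 and 0.895 for the 6 pairs of Sham replicates, and between 0.507 and 0.887 for the 6 pairs of FT replicates. Between the Sham and FT means it was 0.857 over 25 regions. The points share animals within a replicate, and these values are descriptions.

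After fluoxetine, Ntrk2 was called lower in Raphe and Arc by edgeR, and in LH as well by DESeq2. A call needed an adjusted p no higher than 0.1 and a log2 difference of 0.32 or more in size. Over the 25 regions, edgeR called between 0 and 10.8% of transcripts lower and DESeq2 between 0.353% and 4.89%. In Raphe, the seat of the serotonin neurons, Sham samples had 130.0, 99.99, 109 and 126 CPM in replicates 1, 3, 4 and 5, and FT samples had 114.6, 77.2, 52.4 and 62.4 CPM. FT was the lower in all 4 pairs, by a small margin in replicates 1 and 3 and by a large one in replicates 4 and 5, and the groups overlapped through FT replicate 1. The edgeR log2 fold change was -0.68 (SE 0.20, adjusted p = 0.0988), where 3.51% of transcripts were called lower. Th ran from 2.60 to 189 CPM in Sham and from 2.13 to 35.3 CPM in FT, and was called lower by edgeR, and Slc6a3 ran from 0.420 to 15.5 CPM and from 0 to 2.26 CPM and was called lower by DESeq2, while edgeR did not test it. Their part in the Ntrk2 difference was not tested. The Ntrk2 value lost the call when any 1 replicate was left out, with log2 fold changes between -0.87 and -0.54 and adjusted p-values by edgeR between 0.103 and 0.369.

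In Arc, a feeding centre of the hypothalamus, the Sham samples had 178 and 196 CPM in replicates 4 and 5. The FT samples had 151.7, 109.0, 124.8 and 97.9 CPM in replicates 1, 3, 4 and 5. Every FT sample lay below both Sham samples. The log2 fold change by edgeR was -0.76 (SE 0.19, adjusted p = 0.0485), and it rests on the pairs of replicates 4 and 5 alone. In Arc 10.8% of transcripts were called lower and 13.7% higher, so a call there was common. Markers of neighbouring cell groups differed between the Arc groups as well. Avp ran from 1.10 to 3.12 CPM in Sham and from 14.5 to 6467 CPM in FT, Oxt from 0.368 to 3.82 CPM and from 15.5 to 10517 CPM, and Hcrt, the orexin gene, from 0.940 to 1.18 CPM and from 8.18 to 61.9 CPM. Slc6a3, the dopamine transporter, ran from 13.8 to 27.1 CPM in Sham and from 0.433 to 3.99 CPM in FT, and edgeR called these 4 markers in those directions. Their part in the Ntrk2 difference was not tested. DESeq2 gave -0.77 (SE 0.29, adjusted p = 0.0978) in Arc, where it called 3.32% of transcripts lower, and -0.67 (SE 0.23, adjusted p = 0.0504) in Raphe, where it called 4.89% lower.

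In LH, Sham samples had 193, 128, 136 and 131 CPM and FT samples 141.6, 105.6, 59.8 and 64.6 CPM in replicates 1, 3, 4 and 5. FT was the lower in all 4 pairs, and the groups overlapped through FT replicate 1. DESeq2 called it lower with a log2 fold change of -0.73 (SE 0.21, adjusted p = 0.0282), where 2.08% of transcripts were called lower. The edgeR value was -0.74 (SE 0.19, adjusted p = 0.143), in a region where edgeR called 0.052% of transcripts lower. Region markers differed between the LH groups too: edgeR called 2 of 11 higher, Adora2a and Ppp1r1b, and 0 lower. Adora2a ran from 1.415 to 3.104 CPM in Sham and from 4.449 to 10.43 CPM in FT. Ppp1r1b, like Adora2a highest in the Sham NaCcore, ran from 8.57 to 21.99 CPM in Sham and from 17.1 to 54.7 CPM in FT. Slc6a3 ran from 0.484 to 11.3 CPM in Sham and from 0 to 1.84 CPM in FT, and DESeq2 called it lower. Whether these markers bear on Ntrk2 in LH was not tested.

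Elsewhere the estimate was mostly negative but not called. By edgeR, 24 of the 25 log2 fold changes were below 0. They ran from -0.76 in Arc to 0.00 in NaCshell, and their median was -0.48. An unadjusted p under 0.05 was found in 7 regions, all lower, and in 0 regions higher. In these regions such a p was common among all transcripts tested, in either direction. It was found for 4767 of 14464 in Arc, 2766 of 12550 in Raphe, 2728 of 14886 in MPOA and 2338 of 13466 in LH. The counts were 1787 of 13439 in BLA, 1769 of 13257 in PAG and 1675 of 12998 in SNT. The 7 regions also share pools of animals. Both edgeR and DESeq2 called 0 regions higher. Of the 11448 transcripts tested in every region, 660, or 5.77%, were negative in at least as many regions, and the median over transcripts of their median log2 fold change was 0.02.

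**Figure D2:**
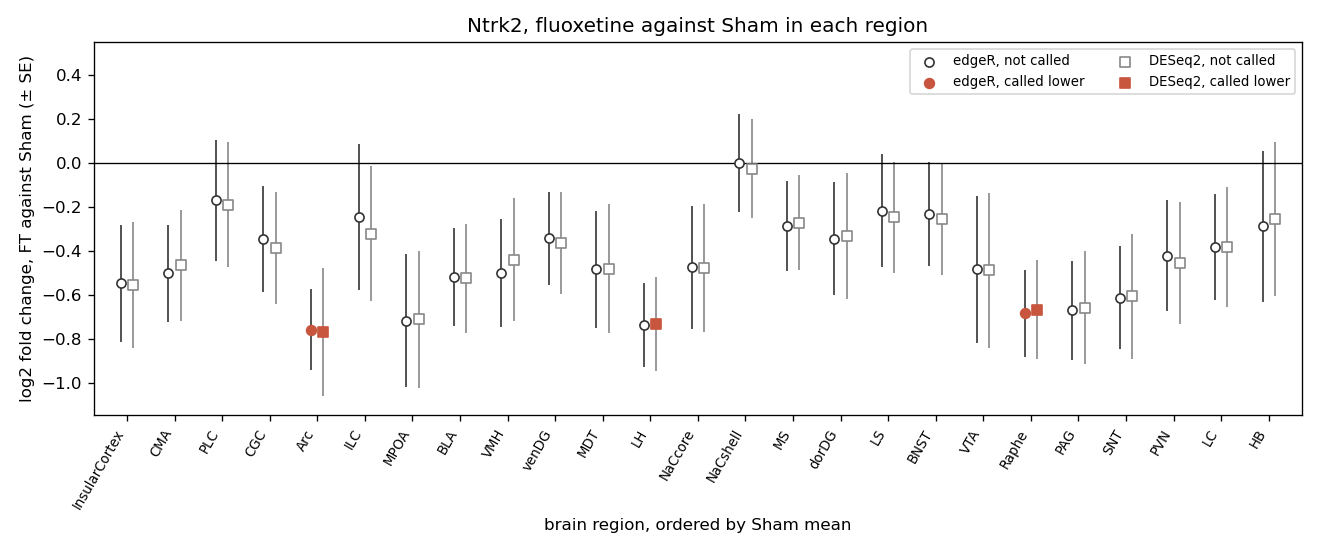
Log2 fold change of Ntrk2, FT against Sham (vertical axis, ± SE), in each region (horizontal axis, ordered by the Sham mean), by edgeR (circles) and DESeq2 (squares), with called regions filled red. Arc and Raphe are filled for both tools and LH for DESeq2, and NaCshell sits at 0.00 by edgeR.

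The groups did not overlap in 4 regions, InsularCortex, MPOA, PAG and Arc, and in all 4 FT was the lower. Of 13241 transcripts with a mean of at least 1 CPM, all FT samples lay below all Sham samples for 0.959% in InsularCortex, 11.4% in MPOA, 0.642% in PAG and 14% in Arc, the higher shares being those of the regions with 2 samples in a group. In InsularCortex the gap was small, from 194.2 CPM in the lowest Sham sample to 193.5 CPM in the highest FT sample. In PAG, Sham samples had 103, 93.1, 124 and 144 CPM and FT samples 92.8, 73.2, 74.6 and 54.6 CPM, with an edgeR log2 fold change of -0.67 (SE 0.23, adjusted p = 0.298). In InsularCortex, FT samples had 106, 193.5, 138 and 158 CPM, and the log2 fold change by edgeR was -0.55 (SE 0.27, adjusted p = 0.667). In MPOA, Sham samples had 217, 176, 156 and 150 CPM and FT replicates 4 and 5 had 102 and 84.6 CPM, with a log2 fold change by edgeR of -0.72 (SE 0.30, adjusted p = 0.159). The share of transcripts that edgeR called lower was 0.0% in PAG and InsularCortex and 4.74% in MPOA. In InsularCortex, Th ran from 0.605 to 1.80 CPM in Sham and from 1.39 to 416 CPM in FT. Npvf, a hypothalamic neuropeptide gene, reached 0.0458 CPM there in Sham and 51.5 CPM in FT. Of 6 region markers tested there, edgeR called 0. In MPOA, Npvf ran from 0 to 0.153 CPM in Sham and from 2.11 to 51.8 CPM in FT. There edgeR called 2 of 11 region markers higher, Npvf among them, and 1 lower. Whether they bear on Ntrk2 was not tested.

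NaCshell differed least. Its Sham samples had 165.5, 122, 120 and 131 CPM and its FT samples 187, 106, 116 and 125 CPM, so that FT was above Sham in replicate 1 and below it in the others. PLC had the widest SD in FT on the CPM scale, though not on the log2 scale, with 295, 214, 99.9 and 163 CPM against 190, 195, 182 and 237 CPM in Sham, and 2 of its 4 pairs were lower.

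The difference between treatments went with the replicate number. In replicates 4 and 5 FT was below Sham in all 25 regions each, with a mean log2 ratio of -0.71 (SD over regions 0.32) and -0.81 (SD over regions 0.32). In replicate 1 FT was lower in 11 of 22 regions, with a mean log2 ratio of 0.03 (SD over regions 0.38), and in replicate 3 in 15 of 22 regions, with a mean of -0.08 (SD over regions 0.30). The ranges show the same. Replicate 4 ran from -1.19 to -0.04 and replicate 5 from -1.43 to -0.07, whereas replicate 1 ran from -1.12 to 0.63 and replicate 3 from -0.59 to 0.66. In all, 76 of 94 pairs were lower in FT, and 12 of 25 regions had every pair lower.

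**Figure D3:**
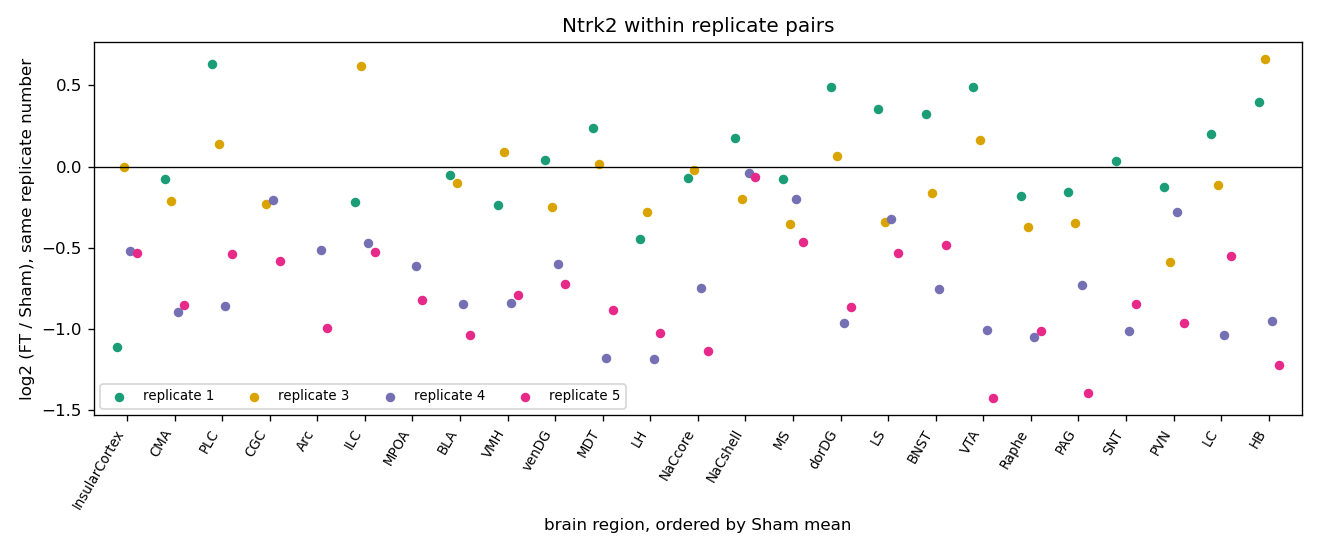
Log2 ratio of Ntrk2 CPM, FT over Sham of the same replicate number (vertical axis), in each region (horizontal axis, ordered by the Sham mean), with 1 point a pair coloured by replicate. All points of replicates 4 and 5 lie below 0, and those of replicates 1 and 3 lie on both sides.

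The mean over the 4 replicate means was -0.40 (SD 0.43, n = 4), with a p of 0.25 in an exact two-sided sign-flip test over the replicates. With 4 replicates at least 2 of the 16 sign patterns are as extreme as the data, so this test could not pass 0.05. The labels do not say what sets these replicates apart. Library measures differed between them too: the median share of reads on no feature was 23.7%, 38.1%, 46.0% and 45.0% in replicates 1, 3, 4 and 5, and the 50 most abundant transcripts took a median of 34.5%, 67.9%, 29.9% and 28.3% of the counts. Their part in the Ntrk2 differences was not tested.

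A difference in the Ntrk2 response between regions was not detected. In a joint fit over 188 paired libraries, the edgeR test for a difference in the treatment effect between regions gave F = 0.47 (adjusted p = 1.00), and 0.00578% of transcripts passed it. Each region's log2 fold change was also set against the mean of the other 24. None of the 25 was past an adjusted p of 0.1, 0 had an unadjusted p under 0.05 in this edgeR fit, and the lowest unadjusted p was 0.118, for NaCshell, with a difference of 0.42 (SE 0.27). The share of transcripts past this threshold was 4.52% in LC, 0.0463% in NaCshell, 0.0347% in InsularCortex, 0.0231% in ILC, 0.0116% in PVN and at most 0.00578% elsewhere. With a treatment effect for each replicate added to the joint fit, F was 1.02 (adjusted p = 0.772 by edgeR) and 565 transcripts passed, and without replicate 5 F was 0.32 (adjusted p = 1.00 by edgeR) and 184 passed. DESeq2 was not run for these tests.

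Among other genes of the TrkB pathway, 19 of 136 on the list had a named transcript. All 19 names come from the same list of transcripts the study called on these samples, so their counts are not independent evidence either. In Arc 9 of 19 were called higher and 3 lower by edgeR, in MPOA 4 higher and 4 lower, in Raphe 1 higher and 4 lower, and in CGC 1 higher. The shares over all transcripts were 13.7% higher and 10.8% lower in Arc, 4.85% higher and 4.74% lower of all transcripts in MPOA, 3.08% higher and 3.51% lower in Raphe and 0.389% higher in CGC. By edgeR, none was called in the other regions. DESeq2 called 14 of the 19 higher and 5 lower in at least 1 region. It called Cdk5 lower in 8 regions, PLC, InsularCortex, dorDG, PAG and SNT among them. Vgf was called higher in 8, NaCshell, MS, PVN, VMH, BLA and HB among them. Over the regions, DESeq2 called between 0.353% and 4.89% of all transcripts lower and between 0.086% and 5.5% higher. By edgeR, 5 of the 19 had a negative median log2 fold change over regions. The median of the 19 medians was 0.26, against 0.02 for all transcripts tested in every region.

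Of the kinases and small GTPases, Cdk5, a neuronal kinase that can phosphorylate TrkB, fell in MPOA, in Raphe and in Arc, by edgeR log2 fold changes of -1.85 (SE 0.28), -1.07 (SE 0.24) and -1.88 (SE 0.20). Its estimate was negative in all 25 regions, with a median of -0.69. Nras, a GTPase of the Ras-MAPK route, fell in the same regions by edgeR, with log2 fold changes of -0.84 in MPOA, -0.69 in Raphe and -1.10 in Arc, and was negative in 24 regions. DESeq2 called Nras lower in NaCshell, Raphe and Arc and not in MPOA. Like Ntrk2, both differed mainly in replicates 4 and 5: the mean log2 ratio of Cdk5 was 0.09, 0.24, -1.41 and -1.70 in replicates 1, 3, 4 and 5, and that of Nras was -0.20, 0.02, -0.89 and -0.65.

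Of the trafficking proteins, Ap2a1, a subunit of the clathrin adaptor that takes receptors into the cell, fell in those 3 regions too, with log2 fold changes of -1.43, -1.38 and -1.12. Mapk8ip3, an adaptor for transport along axons, was called lower by edgeR in MPOA (-0.85) and Raphe (-0.98), and by DESeq2 in BLA and Raphe. Bex1, an adaptor that binds the neurotrophin receptor p75, was called higher in MPOA (1.27) and Arc (0.92).

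Of the genes that respond to BDNF, Vgf, which encodes a neuropeptide precursor, rose in MPOA and Arc with log2 fold changes of 1.24 and 1.78 and had a positive estimate in all 25 regions. Fos, an immediate early transcription factor, rose by edgeR in CGC (1.13), MPOA (0.86) and Arc (0.98). DESeq2 called Fos higher in CGC, NaCshell, MS and PVN and not in MPOA or Arc. Apart from these response genes, Calm3, a calmodulin gene of the pathway list, rose in MPOA (0.96) and Arc (1.11). The mean log2 ratio of Vgf was -0.17, 0.39, 1.12 and 1.83 in replicates 1, 3, 4 and 5.

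**Figure D4:**
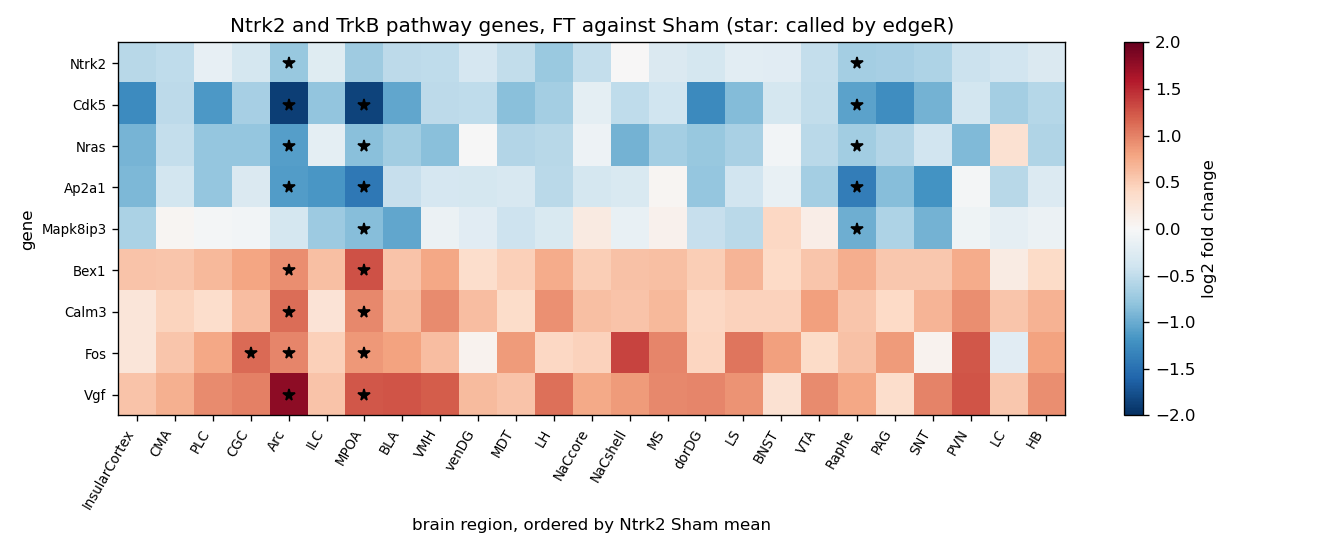
Log2 fold change, FT against Sham by edgeR (colour, from -2 in blue to 2 in red), of Ntrk2 and the 8 TrkB pathway genes called in 2 or more regions (rows) in each region (columns, ordered by the Ntrk2 Sham mean), with stars for calls. Stars fall in Arc, MPOA and Raphe and, for Fos, in CGC.

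Markers of cell types moved with the replicates as well. Like the pathway genes, they could be read only where the list of transcripts the study called on these samples names them. Differences between treatments in these markers are therefore not independent evidence. The summed level of 9 of 37 astrocyte markers had a mean log2 ratio, FT over Sham, of 0.14, 0.53, -0.48 and -0.13 in replicates 1, 3, 4 and 5. That of 13 of 34 neuron markers was 0.29, 0.40, -0.06 and -0.11. That of 16 of 32 oligodendrocyte markers was 0.08, 0.14, -0.35 and 0.04, and that of 3 of 14 microglia markers was 0.18, 0.20, 0.57 and 0.86. No marker on these lists was at 0 in every library. In Sham, the region sums ran from 1673 to 11225 CPM for astrocytes, 2196 to 6517 CPM for neurons, 814 to 3816 CPM for oligodendrocytes and 81.2 to 135 CPM for microglia. In FT they ran from 1481 to 14229, 2377 to 6616, 758 to 3839 and 111 to 184 CPM. Their part in the Ntrk2 differences was not tested.

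Within the astrocyte list the markers did not move together. Kcnj10, a potassium channel, and Slc6a11, a GABA transporter, each fell in MPOA, in Raphe and in Arc by edgeR, with median log2 fold changes over regions of -1.76 and -1.01. Slc7a10, an amino acid transporter, was called higher in MPOA and Arc, with a median of 1.00, and Apoe and Agt were called in 0 regions by edgeR and in 4 regions each, higher, by DESeq2.

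Over the 25 Sham region means, the Pearson r of Ntrk2 with the summed markers on the log2 scale was -0.34 for astrocytes, 0.29 for neurons, -0.63 for oligodendrocytes and 0.49 for microglia. The FT values were -0.13, 0.49, -0.63 and 0.70. The sums are weighted to abundant genes: the Sham median was 3564 CPM for Apoe and 3.77 CPM for Kcnj10. Single members of 3 lists went both ways in Sham. Among astrocyte markers r was 0.52 for Gja1 and -0.58 for Agt. Among neuron markers it was 0.74 for Gabrb2 and -0.62 for Nefh, and among microglia markers 0.82 for Cx3cr1 and -0.29 for C1qa. Every oligodendrocyte marker had a negative r, from -0.77 for Gsn to -0.34 for Tspan2. All these points share libraries, and only part of each list could be read.

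The transcripts most like Ntrk2 were sought among 1731 named ones with a mean of at least 5 CPM in Sham, by Pearson's r of log2 CPM over the 25 Sham region means. B4galt6, a glycosphingolipid synthase, came first with r = 0.85, from 72.1 CPM in LC to 234 CPM in CGC. Atp6ap2, an accessory protein of the proton pump, had r = 0.83, Tmem65 0.83, Pja2, a ubiquitin ligase, 0.82, and Bai3, an adhesion receptor, 0.82. Over the FT region means the values were 0.62, 0.61, 0.23, 0.70 and 0.86, so that Bai3 alone kept a value above 0.8. At the other end were Mrpl52, of the mitochondrial ribosome, with r = -0.82, and Kcng4, a potassium channel subunit, with r = -0.81. Both were highest in LC. The median r over the 1731 was -0.02, and 261 of them, or 15.1%, had an r of 0.5 or more.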

How the data were processed

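Ntrk2 and the gene lists were chosen with earlier results of these data known. Libraries (TruSeq Stranded Total RNA, paired reads of 76 bp) were aligned by the authors with STAR to rn5 and counted per Ensembl transcript with HTSeq. Versions are not given in the sources used here. The deposited values are raw counts. Names came from the study's list of transcripts called in several regions. The dorsal and ventral CA1 regions were not analysed here.

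A Sham library of SNT with 4586 counts, under a minimum of 100000, was left out. The study removed 2 CGC replicates as outliers, without saying which in the sources used here, and the replicate 1 pair of CGC was left out. Unassigned rows of the files, such as reads on no feature (median 40.3% of counted, ambiguous and featureless reads together), entered no total.

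Each region was fitted in edgeR 4.0.16 (R 4.3.3; TMM, filterByExpr with a minimum count of 10, quasi-likelihood F test) with the replicate number as a block. DESeq2 1.42.0 was the alternative. A call needed a p no higher than 0.1 after Benjamini-Hochberg adjustment over all transcripts tested, and a log2 difference of 0.32 or more in size. The block followed the study's methods, and same-numbered FT and Sham samples deviated together (median r over regions 0.66, every pair over 0.1 in 23 of 25 regions). The exceptions were Arc, with a median r of -0.03 over 2 pairs, and MPOA, with 0.09 over 2 pairs. In each of these regions 1 group held only 2 samples, whose deviations from their own mean mirror each other. The check therefore cannot judge the block there. Differences between regions used joint fits, with the dispersion trend read from a subset of transcripts spread over abundance. A region's effect against the other regions was tested in Wald form on the joint fit. CPM on the log2 scale used a prior count of 2. Named genes were Ntrk2, the 5 transcripts most like it and the 3 least like it, listed pathway genes called in 2 or more regions, and listed markers, of which some are not reported here. On data simulated for the Raphe comparison (12550 transcripts), edgeR called 183 of 200 changed transcripts and 20 unchanged ones. The alternatives were other scalings, filters, blocks, thresholds, library sets and each replicate left out.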

Additional observations from a re-analysis of the deposited data

Results flagged for a closer look

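Of 45 groups of 4 samples, 6 held an Ntrk2 level that stood far from the other 3, where chance flags about 1 in 20 groups. In Sham, replicate 3 was low in BLA, at 131 CPM, and in VMH, at 99.0 CPM, replicate 1 was high in LH, at 193 CPM, and replicate 4 was high in LC, at 109 CPM. In FT, replicate 1 was high in CMA, at 188 CPM, and in VMH, at 152 CPM.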

How the results depend on the processing

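The number of regions with Ntrk2 called lower depended most on the processing. It was 2 by edgeR, 0 without the replicate block, 4 without the filter on low counts, 1 at an adjusted p of 0.05, and between 0 and 2 with 1 replicate left out. Arc and MPOA could not be fitted without replicate 4 or 5, which leaves 1 pair. Without the block the log2 fold change was -0.63 in Raphe and -0.62 in Arc, both no longer called. Raphe was not called at an adjusted p of 0.05 (-0.68), and with 1 replicate left out ran from -0.87 to -0.54. LH was called by DESeq2 (-0.73) and without the filter (-0.75). SNT was called without replicate 1 (-0.94), and PAG without the filter (-0.66). The SNT fit rested on 2 pairs and called 2313 of 13146 transcripts lower and 2127 higher, against 0 and 0 in the main fit. Without the filter edgeR called 420 of 23814 transcripts lower in PAG, against 0 with it, and 515 of 25147 lower in LH. The sign changed in NaCshell, at -0.025 by DESeq2, -0.038 with median-ratio size factors and -0.11 to 0.038 with 1 replicate left out, in PLC (-0.44 to 0.029) and in HB (-0.60 to 0.041). In the joint fit of Sham regions, HB below MDT held under every alternative, and PVN below VMH ran from -1.02 to -0.61 with 1 replicate left out. NaCcore minus NaCshell turned to -0.44 in FT samples and ran from -0.13 to 0.20, PLC minus ILC ran from -0.025 to 0.25, and LS minus MS was 0.016 with median-ratio size factors, 0.00036 without the filter, 0.0019 in FT samples, and -0.10 to 0.011 with 1 replicate left out. CGC minus InsularCortex turned to 0.10 with all Sham libraries and 0.15 in FT samples, and ran from -0.28 to 0.057. The cause was not tested. The mean over replicates was -0.44, with the smallest p the exact test allows, with median-ratio size factors and -0.40 otherwise. Over single regions, 217 of 223 alternative log2 fold changes were negative. Each region's effect against the others was not run under the alternatives.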
